A study of Rattus norvegicus with 6 samples.

Results

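Cassette exons longer than 51 nucleotides whose length is not a multiple of 3 were described in rat primary beta cells after knockdown of the splicing factor Nova1. A cassette exon is an internal exon that some transcripts of a gene include and others skip. Skipping was called where another transcript of the same gene model joined the same outer splice sites by 1 intron. Of 7303 cassette events in the deposited transcript assembly, 2729 (37.4%) met this rule, and they involved 2602 exons in 1999 gene models. An event is an exon together with its pair of outer splice sites, so an exon with different neighbours can count more than once. The other events were 3425 with an exon above 51 nucleotides that preserves the frame and 1149 with an exon of up to 51 nucleotides.

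Beta cells make and secrete insulin in pancreatic islets, and here they were sorted from rats by fluorescence in 3 batches. In the Nova1 knockdown group (n = 3), cells received 30 nM of an siRNA against Nova1. In the control group (n = 3), cells of the same batches received 30 nM of AllStars negative control siRNA. Both groups were therefore transfected with lipid reagent, for 16 h, and recovered for 48 h before poly(A) RNA was sequenced. The labels give no strain, sex or age of the rats and do not say whether animals were pooled within a batch.

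Including or skipping an exon whose length is not a multiple of 3 shifts the reading frame downstream when the exon lies in coding sequence. Such a shift usually brings in an early stop codon, and transcripts with one are often removed by nonsense-mediated decay. SR proteins and hnRNPs, which control splice-site choice, are known to adjust their own levels through such exons. Nova1 is a KH-domain RNA-binding protein best known from neurons, where it promotes or represses cassette exons depending on where it binds near them. The assembly lists exons without coding regions, so which of these exons were coding and which lay in an untranslated region was not determined.

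Inclusion of an exon in a library was the summed level of its including transcripts as a percentage of including plus skipping transcripts, both in reads scaled by transcript length and library depth (RPKM). A mean of at least 1 RPKM over both forms and the 6 libraries was required for a test. It was reached by 1979 events, which were 1924 exons in 1524 gene models, and 750 events fell below it. In 15 of the 1979 events neither form was listed above 0 in at least 1 library, which left 1964 with 6 values. Of the 2729 events, 36 had no gene symbol in the assembly.

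Exon sizes ran from 52 to 5062 nucleotides, with a median of 118 and quartiles of 85 and 164. The largest lay in Prkcb, which encodes a protein kinase C. Division by 3 left a remainder of 1 in 1411 events and of 2 in 1318. At the size limit, 11 events had an exon of 52 nucleotides and 26 one of 53, while 31 events of 50 nucleotides and 22 of 49 fell just outside. Genes were matched to the RefSeq table of the rat assembly GRCr8 by symbol, Ensembl identifier or synonym. Of the 2729 events, 2577 were in genes listed there as protein-coding, 6 were in other kinds of gene and 146 found no match.

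Features that the size rule did not use are given beside the frame-preserving exons above 51 nucleotides, as counts without a test. The exon was the second exon of its transcript in 603 of 1979 events (30.5%), against 371 of 2556 frame-preserving events (14.5%). It was the next-to-last exon in 17.7% of events, against 10.8%. Both the including and the skipping form were reference transcripts in 48 events (2.43%), against 392 (15.3%). Median flanking introns were close in length, 2410 nucleotides upstream and 2438 downstream, against 2222 and 2107. The including form alone was in the reference in 955 events (48.3%), the skipping form alone in 405 (20.5%), and neither in 571 (28.9%).

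Annotation status and inclusion went together. Where only the including form was a reference transcript, median inclusion was 85.2% in knockdown and 84.2% in control cells. Where only the skipping form was, it was 19.9% in knockdown and 20.7% in control cells. In the typical exon of both sets the newly assembled form was the minor one, in either group. Exons with neither form in the reference had medians of 53.0% in knockdown and 52.7% in control cells.

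Median inclusion was 70.2%, 67.3% and 71.8% in the knockdown libraries of batches 1, 2 and 3, against 69.5%, 69.5% and 70.9% in the control libraries. The ranges of the groups overlapped, with the knockdown library of batch 2 the lowest and that of batch 3 the highest. Frame-preserving exons had medians of 65.0%, 65.4% and 66.1% in knockdown and 66.0%, 64.7% and 66.2% in control libraries. Below 10% inclusion lay 14.7% to 16.5% of the frame-shifting exons in the knockdown libraries and 14.5% to 15.8% in the control libraries. Above 90% lay 29.4% to 31.3% in the knockdown libraries and 29.1% to 30.5% in the control libraries. Between 9.93% and 12.3% of exons in knockdown and between 8.24% and 10.6% in control libraries stood at exactly 100%, with the skipping form listed at 0. A listed 0 can be a failed estimate of a transcript as well as its absence.

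**Figure D1:**
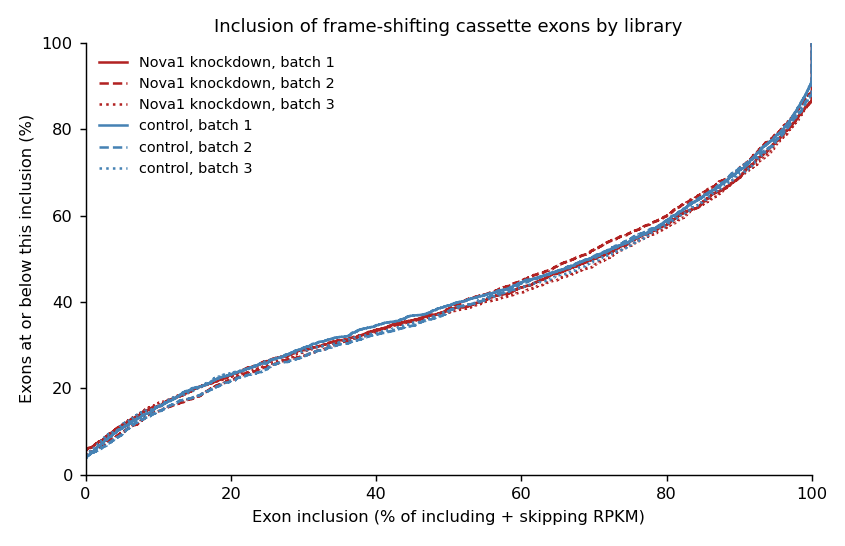
Cumulative share of frame-shifting cassette exons (y axis, %) at or below a given inclusion (x axis, % of including plus skipping RPKM), with 1 line for each Nova1 knockdown (red) and control (blue) library and 1 line style per batch. The 6 lines lie close together, with library medians between 67.3% and 71.8%.

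Inclusion was lower for second exons and for large exons. Second exons had a median of 55.9% in knockdown and 56.2% in control cells, against 72.7% and 73.0% for the other frame-shifting exons. Exons of 251 to 500 nucleotides had medians of 47.4% in knockdown and 45.3% in control cells (93 events). For 501 nucleotides and above they were 47.8% and 54.2% (65 events), and for 52 to 100 nucleotides 67.9% and 68.1% (781 events).

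The spread between libraries of 1 group was wide and depended on level. The median standard deviation (SD) of inclusion over the 3 libraries of a group was 8.13 percentage points in knockdown and 8.09 in control cells. At 1 to 3 RPKM it was 12.1 in knockdown and 10.9 in control cells, and at 10 RPKM and above 4.79 and 4.74. Across 1964 exons the size of the difference between the groups and the mean RPKM had a Spearman correlation of -0.232, a description over exons that share libraries.

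Nova1 itself was measured first as the check of the labels. Its gene level, in estimated reads scaled to library depth (CPM), was 7.76, 10.2 and 9.43 in the knockdown libraries of batches 1 to 3, against 20.6, 21.5 and 17.4 in the control libraries. All 3 knockdown libraries were below all 3 control libraries. The log2 fold change was -1.12 ± 0.11 (SE), a fall of 54.0%, with a limma adjusted p of 0.0378 (Benjamini-Hochberg, 15983 genes). That call was lost without the batch term (limma adjusted p = 1), without batch 1 (0.14) or batch 2 (0.15), and on log2 RPKM values (0.33).

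Reads assigned to transcripts numbered 95394043 to 146453308 in knockdown and 122637234 to 292432076 in control libraries, so the knockdown libraries of each batch were the shallower of the pair. Summed RPKM of 10 beta cell markers was 220026 to 485039 in knockdown and 295351 to 480636 in control libraries, and none of the 10 genes passed the gene-level limma test. Stellate and fibroblast markers summed to 16.5 to 21.8 in knockdown and 6.54 to 14.5 in control libraries, without overlap, and 1 of 5 passed. Macrophage markers summed to 10.5 to 20.9 in knockdown and 11.2 to 13.7 in control libraries, with 2 of 5 passing, and the 5 of 6 acinar markers found summed to 93.9 to 284.0 and 130.6 to 376.6, with 1 passing. No alpha, delta, PP, duct or endothelial marker passed, endothelial markers stood at 1.15 to 2.43 in knockdown and 1.15 to 2.4 in control libraries, and no marker was at 0 in every library. Markers that passed are to be read beside the 274 of 15983 genes (1.71%) that passed the same test. That test called 0 genes without the batch term, without batch 2 and on log2 RPKM values. The part of depth and of these cells in exon inclusion was not tested. In these bulk samples, fewer cells of a type and less RNA per cell cannot be told apart.

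The question the design poses is which exons depend on Nova1. None of the 1979 frame-shifting exons passed a limma test of the log2 ratio of including to skipping RPKM at an adjusted p of 0.05 (0.0%), and none of the 5388 cassette events of all kinds did (0.0%). The smallest limma adjusted p over all 5388 events was 0.35, after Benjamini-Hochberg adjustment. At an unadjusted limma p below 0.05 there were 90 frame-shifting exons (4.55%), against 250 of all cassette events (4.64%). Of the 90, the ratio was higher in knockdown cells in 50 (2.53%, against 2.52% of all cassette events) and lower in 40 (2.02%, against 2.12%).

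Differences were also counted by their size. Inclusion was at least 10 points higher in the knockdown library of each batch in 29 of 1964 exons (1.48%, against 1.81% of all cassette events) and at least 10 points lower in each in 26 (1.32%, against 1.7%). Together these were 55 exons (2.8%, against 3.51%). Knockdown and control libraries did not overlap in 167 exons (8.5%, against 8.51%). Inclusion was higher in knockdown cells in 81 of them (4.12%, against 4.01% of all cassette events) and lower in 86 (4.38%, against 4.5%). Differences ran the same way in all 3 batches in 471 exons (24.0%, against 23.7%). Mean inclusion was higher in knockdown cells in 965 exons and lower in 966.

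Differences between the groups within a batch were of about the size of differences between batches within a group. The median absolute difference between knockdown and control library was 6.89, 7.07 and 6.43 points in batches 1, 2 and 3. Between knockdown libraries of different batches it was 8.14, 6.81 and 8.17 points, and between control libraries 8.79, 6.76 and 8.36. Pairs that involved batch 2 and another batch were the most distant in both groups. The knockdown-minus-control difference of an exon in 1 batch was nearly unrelated to that in another, with Spearman correlations across exons of 0.0168 for batches 1 and 2 (1964 exons), -0.00534 for batches 1 and 3 and 0.0358 for batches 2 and 3 (1967 exons each).

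**Figure D2:**
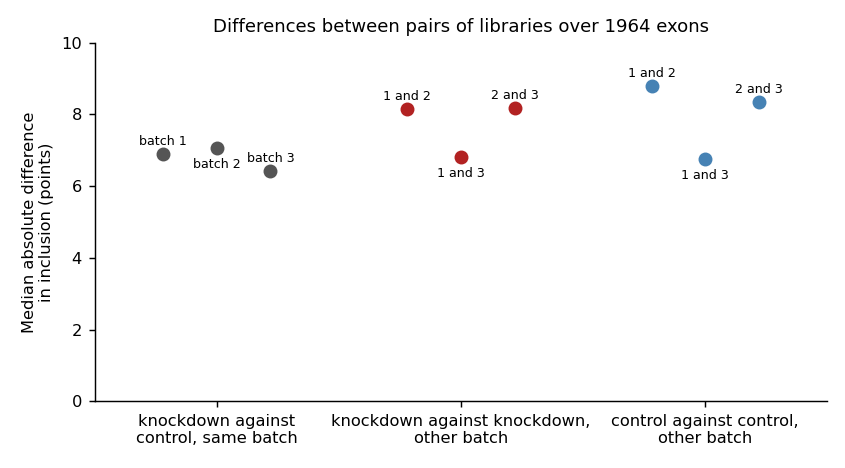
Median absolute difference in inclusion (y axis, percentage points) between pairs of libraries over 1964 frame-shifting exons, with 1 point per pair: knockdown against control of the same batch (left), 2 knockdown libraries of different batches (middle) and 2 control libraries of different batches (right). The within-batch pairs sit at 6.43 to 7.07 points and the pairs across batches at 6.76 to 8.79.

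The exons named first were among the 12 in each direction with the largest differences in mean inclusion that ran the same way in all batches. The 23 of them reported here, 12 higher and 11 lower in knockdown cells, had a limma adjusted p of 0.864 with Benjamini-Hochberg adjustment, so each difference is given as values and not as a call. Coordinates are those of the authors' files, on Rnor_5.0. Of the 12 higher in knockdown cells, none had the exon's including and skipping forms both in the reference, and the 12 are shown with their libraries in the plot of the largest differences.

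Ndst4 encodes an enzyme that deacetylates and sulfates heparan sulfate chains, and its 1217-nucleotide second exon lies on the plus strand at chr2:248550827-248552043. Inclusion was 100%, 100% and 100% in knockdown libraries, against 12.4%, 41.3% and 14.2% in control libraries. The groups did not overlap, because the skipping form was listed at 0 in every knockdown library and at 0.897, 1.13 and 0.765 RPKM in control libraries. The including form had 0.741, 2.36 and 0.792 RPKM in knockdown, against 0.126, 0.792 and 0.127 RPKM in control libraries. The unadjusted limma p of 0.000335 was the smallest of all frame-shifting exons, with a gene-level log2 fold change of 0.17.

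Bicc1, an RNA-binding protein with KH domains, had a 79-nucleotide exon at chr20:21089118-21089196 on the plus strand. Its inclusion was 94.5%, 81.4% and 47.6% in knockdown libraries, against 7.93%, 4.5% and 28.2% in control libraries. Both forms together averaged 9.43 RPKM, and every knockdown library lay above every control library. The skipping forms, and not the including form, were in the reference.

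C1d, a cofactor of the nuclear RNA exosome, had an 80-nucleotide second exon at chr14:100119424-100119503 on the minus strand. Inclusion was 29.1%, 71.7% and 50.9% in knockdown, against 2.62%, 4.57% and 10.6% in control libraries. The including form stood at 2.23, 4.61 and 4.54 RPKM in knockdown and 0.202, 0.332 and 0.83 RPKM in control libraries, without overlap. The log2 ratio differed by 3.90 ± 0.67 (SE), with an unadjusted limma p of 0.00476.

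Pank2, the mitochondrial pantothenate kinase that starts coenzyme A synthesis, had a 254-nucleotide exon at chr3:130321262-130321515 on the plus strand with inclusion of 66.6%, 49.2% and 75.5% in knockdown and 22.9%, 4.2% and 0% in control libraries. The groups did not overlap, and the gene level had a log2 fold change of -0.44 with a limma adjusted p of 0.054 (Benjamini-Hochberg). Kctd18, a BTB-domain protein, had a 53-nucleotide exon, among the shortest allowed by the size rule, at 67.6%, 61.1% and 74.4% in knockdown and 4.79%, 0% and 28.2% in control libraries. Its groups did not overlap either, at a mean of 1.49 RPKM.

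Rwdd2b, an RWD-domain protein, had a 68-nucleotide exon at chr11:30714310-30714377 on the minus strand, included at 76.8%, 86.5% and 87.9% in knockdown and 43.1%, 24.4% and 34.4% in control libraries. The knockdown mean was 83.7% ± 6.03 and the control mean 33.9% ± 9.35 (SD, n = 3 each), one of the tighter contrasts among the 23. Enc1, a kelch-family actin-binding protein, had an exon of 1814 nucleotides at 91.7%, 91.9% and 94.8% in knockdown and 72.5%, 17.9% and 69.3% in control libraries. There the control library of batch 2 stood far below the others, but both forms were low in it. The including form was at 0.0509 RPKM and the skipping form at 0.233 RPKM. In the control libraries of batches 1 and 3 they were at 4.41 and 4.58 RPKM and at 1.67 and 2.03 RPKM. Pphln1, periphilin of the gene-silencing HUSH complex, had an 80-nucleotide exon at 95.3%, 82.4% and 86.2% in knockdown and 56.3%, 15.9% and 58.8% in control libraries, again with the control library of batch 2 the lowest.

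The remaining exons that were higher in knockdown cells lay in Iqcc, Zfp606, Epb49 and Cdkl3. Iqcc (253 nucleotides) stood at 84.7%, 80.0% and 100% in knockdown and 3.57%, 59.7% and 48.7% in control libraries. Epb49, the actin-bundling protein dematin, had a 256-nucleotide exon at 69.7%, 16.6% and 67.6% in knockdown and 11.2%, 12.3% and 10.1% in control libraries. In both genes the groups did not overlap, although the knockdown library of batch 2 came close to the controls in Epb49. Cdkl3, a kinase related to cyclin-dependent kinases, had a 74-nucleotide exon at 40.2%, 85.2% and 16.3% in knockdown and 9.6%, 0% and 13.0% in control libraries.

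A pair of exons of the zinc finger gene Zfp606 showed opposite differences. The 82-nucleotide second exon at chr1:67052496-67052577 on the minus strand stood at 95.4%, 90.6% and 90.8% in knockdown and 88.6%, 50.6% and 0% in control libraries. The 83-nucleotide exon after it, at chr1:67050947-67051029, stood at 6.85%, 4.48% and 4.33% in knockdown and 25.1%, 15.7% and 49.1% in control libraries. Neither exon's groups overlapped, the 3 knockdown libraries lay close together for both, and the control libraries were widely spread for the second exon. The transcript that includes the 82-nucleotide exon counts among the skipping forms of the 83-nucleotide exon. The opposite differences are therefore not independent. Epb49 also had exons on both sides, with a 131-nucleotide exon at 41.5%, 18.0% and 18.7% in knockdown and 46.1%, 45.8% and 85.5% in control libraries, without overlap.

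**Figure D3:**
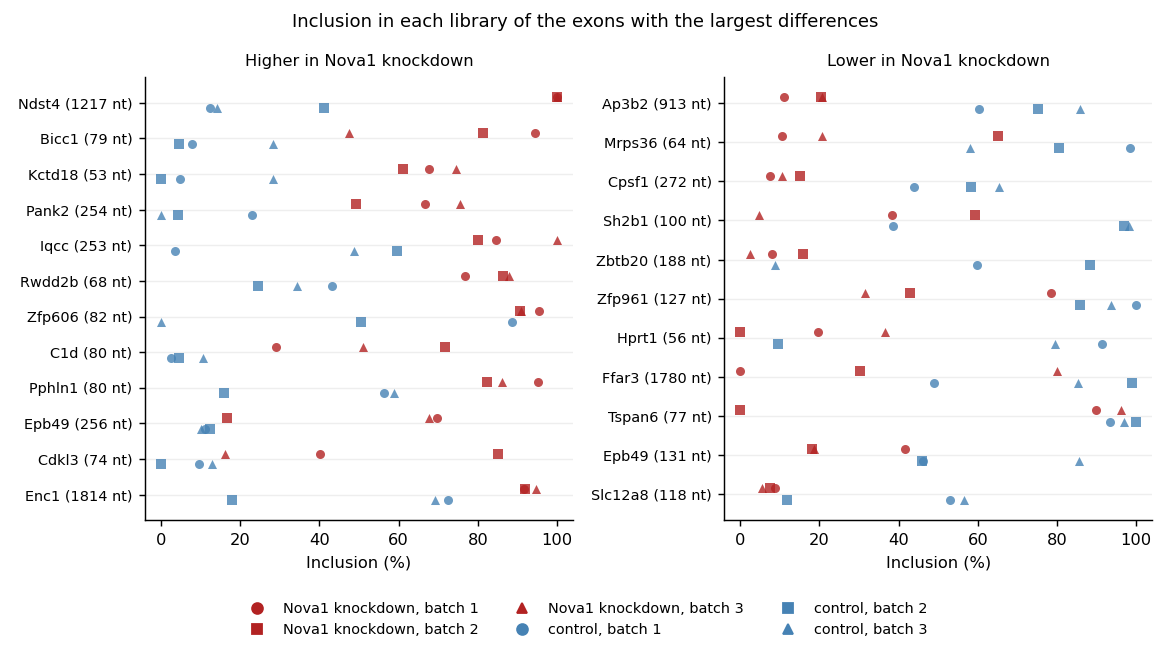
Inclusion (x axis, %) in each library of 23 frame-shifting exons with the largest differences in mean inclusion that ran the same way in every batch, with Nova1 knockdown libraries in red above control libraries in blue and 1 marker shape per batch. The exons on the left were higher in knockdown cells and those on the right lower, and the marker for batch 2 departs from the others of its group in Enc1, Epb49 (256 nt) and Tspan6.

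Among the 26 exons at least 10 points lower in knockdown cells in each of the 3 batches, the largest mean difference was in Ap3b2, the neuronal beta subunit of the AP-3 adaptor complex that sorts membrane proteins into vesicles. Its 913-nucleotide exon at chr1:144257404-144258316 on the minus strand stood at 11.0%, 20.5% and 20.7% in knockdown, against 60.3%, 75.2% and 85.8% in control libraries. All knockdown libraries lay far below all control libraries. The including form was at 0.225, 0.542 and 0.237 RPKM in knockdown and 0.339, 4.54 and 2.11 RPKM in control libraries, of which the control of batch 1 was near the knockdown values. The skipping form was at 1.82, 2.1 and 0.91 RPKM in knockdown and 0.223, 1.5 and 0.349 RPKM in control libraries. Means were 17.4% ± 5.54 in knockdown and 73.8% ± 12.8 in control cells (SD, n = 3 each), with an unadjusted limma p of 0.00211.

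Cpsf1, the largest subunit of the cleavage and polyadenylation specificity factor, had a 272-nucleotide exon, the 37th of its transcript, at chr7:117649719-117649990 on the minus strand. Inclusion was 7.53%, 15.2% and 10.5% in knockdown, against 44.0%, 58.2% and 65.3% in control libraries. The groups lay well apart, at 11.1% ± 3.87 in knockdown and 55.9% ± 10.8 in control cells (SD, n = 3 each). Gene-level CPM was 39.1 ± 5.39 in knockdown and 39.4 ± 8.15 in control cells, and neither form was in the reference.

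Zfp961, a zinc finger gene, had 2 overlapping exons with the same upstream splice site that both met the 10-point rule. The 127-nucleotide form, at chr16:19401395-19401521, stood at 78.4%, 42.9% and 31.4% in knockdown and 100%, 85.9% and 93.5% in control libraries, without overlap. The 196-nucleotide form, at chr16:19401326-19401521, stood at 83.8%, 0% and 45.2% in knockdown and 100%, 17.7% and 75.8% in control libraries, with overlap. Both share their skipping transcript, so the values are not independent. Zinc finger genes have close relatives, so the assignment of reads among them is uncertain.

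Mrps36, named for the mitochondrial ribosome, had a 64-nucleotide second exon at 10.6%, 65.0% and 20.7% in knockdown and 98.4%, 80.6% and 58.1% in control libraries. The groups overlapped through the knockdown library of batch 2. Sh2b1, an adaptor of insulin and leptin receptor signalling, had a 100-nucleotide exon at 38.4%, 59.2% and 4.82% in knockdown and 38.7%, 97.0% and 98.2% in control libraries. Both its forms were in the reference, and batch 1 showed next to no difference.

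Hprt1, the purine salvage enzyme, had a 56-nucleotide exon at 19.6%, 0% and 36.6% in knockdown and 91.4%, 9.44% and 79.4% in control libraries. Slc12a8, of the cation-chloride cotransporter family, had a 118-nucleotide exon at 8.8%, 7.59% and 5.59% in knockdown and 52.9%, 11.9% and 56.4% in control libraries. In both genes the control library of batch 2 was low, and batch 2 gave the smallest difference. Zbtb20, a transcription factor, had a 188-nucleotide exon at 8.12%, 15.8% and 2.52% in knockdown and 59.9%, 88.2% and 8.75% in control libraries, with overlap through the control of batch 3.

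In the last exons reported, 1 or 2 batches carried the difference. Ffar3, a receptor for short-chain fatty acids, had a 1780-nucleotide exon at 0%, 30.2% and 80.1% in knockdown and 48.9%, 98.8% and 85.3% in control libraries. Tspan6, a tetraspanin, had a 77-nucleotide exon at 89.9%, 0% and 96.2% in knockdown and 93.3%, 100% and 96.9% in control libraries. The Tspan6 difference was nearly all in batch 2, and the Ffar3 difference was in batches 1 and 2.

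A few exons with smaller differences but groups that did not overlap were chosen for description after their values were seen. Cxxc4, which inhibits Wnt signalling, had a 76-nucleotide second exon at chr2:257941207-257941282 with inclusion of 70.2%, 82.2% and 72.1% in knockdown, against 99.8%, 99.4% and 99.4% in control libraries. Its skipping form was at 1.14, 0.686 and 3.58 RPKM in knockdown and 0.024, 0.0789 and 0.0667 RPKM in control libraries. Every knockdown library lay above every control library for that form, while the including form was at 2.67, 3.17 and 9.27 RPKM in knockdown and 13.3, 12.9 and 11.0 RPKM in control libraries. Gene-level CPM was 78.8 ± 5.24 in knockdown and 73.9 ± 5.16 in control cells. The unadjusted limma p was 0.000911 for Cxxc4, and the adjusted p 0.864 for each of these exons.

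Dtx3, a Deltex-family ubiquitin ligase, had a 749-nucleotide exon at 98.1%, 91.9% and 98.4% in knockdown and 67.3%, 59.6% and 80.3% in control libraries. St3gal5, the sialyltransferase that makes the ganglioside GM3, had a 112-nucleotide exon at 99.2%, 98.8% and 98.2% in knockdown and 91.8%, 71.9% and 66.1% in control libraries. Timm21, of the mitochondrial protein import machinery, had a 106-nucleotide exon at 61.2%, 51.6% and 79.2% in knockdown and 91.6%, 84.8% and 99.4% in control libraries. The groups did not overlap in Dtx3, St3gal5 or Timm21, and Timm21 was the one of them with lower inclusion in knockdown cells.

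The 55 exons that met the 10-point rule in each batch resembled the others in size, with a median of 103 nucleotides for those higher in knockdown cells and 109 for those lower, against 116 for all 1979. Second exons made up 37.9% and 34.6% of them, against 30.5%. Their differences in mean inclusion ran between 11.5 and 77.4 points in the 29 that were higher and between -56.4 and -12.2 points in the 26 that were lower. In the 29 the including form had a median log2 difference of 0.71 and the skipping form of -1.20, and in the 26 the values were -0.68 and 0.56. Both forms thus took part in the typical exon, which the choice of exons favours. Examples at higher level, chosen after their values were seen, were Myst2, a histone acetyltransferase, whose 107-nucleotide exon stood at 62.0%, 80.5% and 65.2% in knockdown and 38.1%, 40.3% and 23.0% in control libraries, and Nipa1, a magnesium transporter, whose 91-nucleotide exon stood at 50.1%, 58.8% and 48.2% in knockdown and 60.2%, 80.0% and 60.0% in control libraries. In neither gene did the groups overlap.

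Exons were also picked by a rule on batches, that both libraries of a batch lie apart from the other 4. Among 1591 exons with a mean inclusion of 5% to 95% and 6 values, both libraries of batch 2 lay more than 20 points outside the range of the other 4 in 31 (1.95%, against 1.6% of 4312 cassette events of all kinds). For batch 1 the count was 22 (1.38%, against 1.28%) and for batch 3 it was 15 (0.943%, against 1.14%). These shares were near those of all cassette events. The exons named from these sets were chosen after their values were seen, by level. That both libraries of the batch lie on the same side in them is the rule itself and not a result.

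Clk1 encodes a kinase of SR proteins and is known to control its own transcript through a skipped exon. Its 91-nucleotide exon, number 4 of its transcript, at chr9:65111588-65111678 on the minus strand had inclusion of 88.1%, 23.3% and 76.2% in knockdown and 84.6%, 23.7% and 84.5% in control libraries. Both libraries of batch 2 lay near 23%, and within each batch the siRNAs differed little. The difference in means was -1.76 points, with an unadjusted limma p of 0.826.

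Zfp622, a zinc finger gene, had a 113-nucleotide exon at 86.1%, 7.9% and 96.7% in knockdown and 96.8%, 9.15% and 94.8% in control libraries. Plekhm2, an adaptor for lysosome transport, had a 110-nucleotide exon at 85.2%, 33.3% and 89.0% in knockdown and 76.0%, 26.7% and 100% in control libraries. Terf1, a telomere-binding protein, had a 107-nucleotide exon at 89.0%, 64.9% and 96.6% in knockdown and 93.1%, 68.8% and 91.4% in control libraries. In these genes the batch 2 pair was low and the knockdown and control of that pair were close.

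Other exons were high in batch 2. Klhdc8a, a kelch-repeat protein, had a 1411-nucleotide exon at 6.89%, 64.3% and 7.22% in knockdown and 7.06%, 63.7% and 5.26% in control libraries. Arhgap1, a GTPase-activating protein, had a 59-nucleotide exon at 23.0%, 73.3% and 19.3% in knockdown and 17.0%, 88.9% and 17.6% in control libraries. Osbpl2, an oxysterol-binding protein relative, had a 215-nucleotide exon at 17.2%, 62.0% and 28.9% in knockdown and 14.2%, 58.3% and 14.7% in control libraries.

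Batch 3 stood apart in Pvrl3, the cell adhesion protein nectin-3, for a pair of exons. The 85-nucleotide exon at chr11:62089024-62089108 stood at 94.4%, 93.2% and 17.2% in knockdown and 99.3%, 94.1% and 32.3% in control libraries. The 842-nucleotide exon at chr11:62100471-62101312 stood at 5.57%, 7.42% and 82.8% in knockdown and 2.64%, 7.7% and 67.7% in control libraries. Batch 3 was thus low for the first and high for the second in both groups. The skipping form of the first was at 1.13, 1.6 and 14.0 RPKM in knockdown and 0.123, 1.02 and 10.9 RPKM in control libraries. The including form of the second was close to that, at 1.13, 1.74 and 14.0 RPKM and at 0.492, 1.33 and 10.9 RPKM. The opposite patterns of this pair are therefore not to be read as independent. What differed between the batches is not given in the sources used here.

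**Figure D4:**
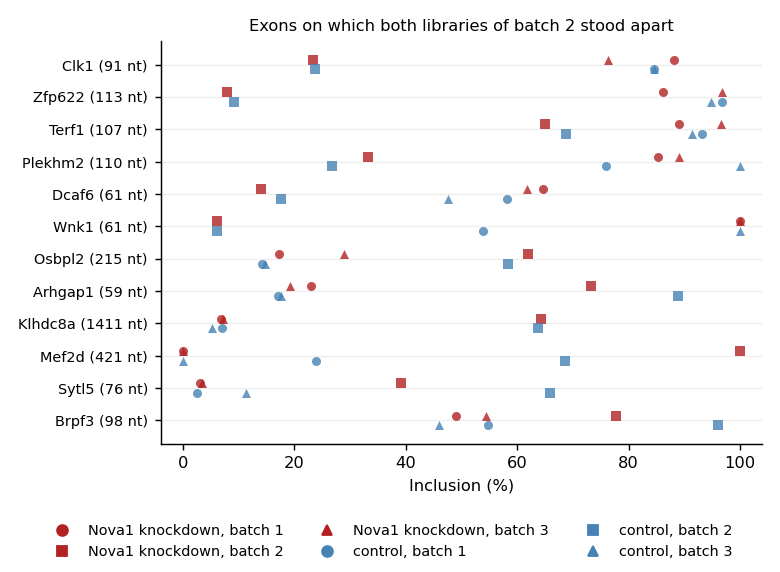
Inclusion (x axis, %) in each library of 12 frame-shifting exons on which both libraries of batch 2 (squares) lay more than 20 points outside the range of the other 4, with Nova1 knockdown in red above control in blue. Both squares of a row lie on the same side by the rule that picked the exons, as in Clk1 at 23.3% and 23.7%.

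Exons in genes of 7 lists were then followed whatever their difference. None of them passed the limma test in any list, and the counts below at an unadjusted p are to be read beside the 4.55% of all frame-shifting exons. SR proteins, hnRNPs and their kinases held 6 exons above 1 RPKM in 6 of 40 genes, with 0 at an unadjusted limma p below 0.05 and a median difference of 1.19 points. Other splicing regulators and RNA-binding proteins held 40 exons in 25 of 88 genes, also with 0 and a median difference of 1.28. The median over all frame-shifting exons was 0. None of these 46 exons met the 10-point rule.

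Srsf7, an SR protein, had a 461-nucleotide exon at chr6:2860777-2861237 on the minus strand that only its non-reference form included. Inclusion was 14.6%, 24.9% and 7.08% in knockdown and 12.4%, 19.9% and 6.38% in control libraries, so that the batches differed more than the siRNAs. Clk4, a relative of Clk1, had an exon of the same 91 nucleotides at 0.193%, 50.8% and 97.8% in knockdown and 83.3%, 55.9% and 80.2% in control libraries. Only the knockdown library of batch 1 lay near 0. Srsf4, another SR protein, had a 175-nucleotide exon at 100%, 100% and 45.5% in knockdown and 48.5%, 35.6% and 100% in control libraries, with overlap and no common order.

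Matr3, a nuclear matrix RNA-binding protein, had a 1088-nucleotide second exon at 58.6%, 63.0% and 78.3% in knockdown and 84.0%, 54.1% and 85.6% in control libraries. Its 122-nucleotide exon stood at 74.4%, 70.7% and 88.2% in knockdown and 99.7%, 71.8% and 91.0% in control libraries, the highest-level exon of the list at 62.1 RPKM. The groups overlapped for both. The skipping forms of both exons stood at 23.9 RPKM in the knockdown library of batch 2 and at 4.68 RPKM in the control library of batch 3. The values of this pair are therefore not to be read as independent. Mbnl2, a muscleblind splicing regulator, had a 95-nucleotide exon at 41.1%, 33.3% and 47.0% in knockdown and 37.4%, 29.0% and 44.8% in control libraries, higher in the knockdown library of each batch by less than the batches differed.

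Esrp1, an epithelial splicing regulator, had a 151-nucleotide exon at 75.3%, 85.2% and 81.2% in knockdown and 78.0%, 89.0% and 81.6% in control libraries, and a 112-nucleotide exon at 7.51%, 12.9% and 5.1% in knockdown and 3.15%, 6.45% and 4.45% in control libraries. The first was mostly included and the second mostly skipped in every library. The including form of the first and the skipping form of the second had the same RPKM in every library, so these values are not independent. Ptbp3, a relative of the polypyrimidine tract binding protein, had a 170-nucleotide exon at 81.9%, 91.7% and 85.7% in knockdown and 92.0%, 97.6% and 30.6% in control libraries. The control of batch 3 alone was low. Rbm5 (74 nucleotides) stood at 86.1%, 58.5% and 83.2% in knockdown and 85.8%, 76.2% and 94.6% in control libraries, and Zcchc17 (92 nucleotides) at 93.6%, 68.2% and 92.9% and at 96.8%, 95.1% and 85.0%.

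Factors of nonsense-mediated decay held 5 exons in 4 of 19 genes, with 0 at an unadjusted limma p below 0.05. Rnps1, a splicing and decay cofactor, had a 181-nucleotide second exon at 68.2%, 59.8% and 64.1% in knockdown and 74.8%, 62.7% and 72.7% in control libraries, lower in the knockdown library of each batch yet overlapping. Smg1, the kinase of Upf1, had a 58-nucleotide exon at 89.7%, 84.2% and 89.5% in knockdown and 91.2%, 71.4% and 84.4% in control libraries, and a 107-nucleotide exon at 100% in all libraries but the control of batch 2, at 66.8%. Upf2, a core decay factor, had a 79-nucleotide exon at 0%, 93.3% and 94.4% in knockdown and 0%, 100% and 79.5% in control libraries. Both its libraries of batch 1 had the including form listed at 0. The skipping form there was at 1.22 RPKM in knockdown but 0.00857 RPKM in control, so that control value rests on almost no signal.

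Exocytosis and secretory granule genes held 14 exons in 11 of 74 genes, of which 3 had an unadjusted limma p below 0.05 and 1 met the 10-point rule. Stx16, a SNARE of the trans-Golgi network, had a 166-nucleotide exon at chr3:178228074-178228239 on the plus strand at 55.4%, 54.6% and 73.5% in knockdown, against 97.9%, 92.7% and 77.5% in control libraries. The groups did not overlap, although batch 3 differed by few points, and the unadjusted limma p was 0.0482. Erc2, an active zone scaffold, had a 68-nucleotide second exon at 92.3%, 68.3% and 56.3% in knockdown and 42.4%, 16.9% and 40.6% in control libraries, at a mean of 1.29 RPKM and an unadjusted limma p of 0.0361. Ppfia2, a liprin, had a 92-nucleotide exon at 97.4%, 99.9% and 100% in knockdown and 91.2%, 90.1% and 82.9% in control libraries, without overlap. Its unadjusted limma p was 0.0299. Each of the 3 had a limma adjusted p of 0.864 (Benjamini-Hochberg), and Erc2 and Ppfia2 are named for their values.

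Rab27a, the GTPase that docks insulin granules, had a 124-nucleotide exon at 88.7%, 84.2% and 95.8% in knockdown and 97.7%, 79.0% and 84.5% in control libraries. Vamp4, a SNARE of the trans-Golgi network, had a 52-nucleotide exon, the shortest size the rule allows, at 91.4%, 86.6% and 89.1% in knockdown and 87.3%, 80.3% and 89.1% in control libraries. Its 989-nucleotide exon stood at 79.6%, 71.1% and 79.9% in knockdown and 71.9%, 59.2% and 83.0% in control libraries. The groups overlapped in each case. Ppfia1 (71 nucleotides) stood at 48.7%, 40.0% and 58.9% in knockdown and 99.1%, 31.7% and 61.5% in control libraries, and Sytl5 (76 nucleotides) was one of the exons high in batch 2, at 3.01%, 39.2% and 3.47% in knockdown and 2.55%, 65.8% and 11.3% in control libraries.

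Ion channel, pump and receptor genes held 12 exons in 11 of 72 genes, with 0 at an unadjusted limma p below 0.05. Gria2, a subunit of AMPA-type glutamate receptors, had 2 neighbouring exons of 115 nucleotides each on the minus strand, at chr2:198997024-198997138 and chr2:198997800-198997914. They are alternatives to each other in known transcripts of this receptor family. In the assembly their including form held both exons, and the skipping forms of each exon were spliced to the other. The percentages therefore compare a transcript with both exons to transcripts with 1 of them, and do not measure total use of either exon. By this measure the first stood at 0%, 23.5% and 22.4% in knockdown and 3.31%, 3.85% and 3.55% in control libraries. The second stood at 0%, 38.7% and 43.9% in knockdown and 5.92%, 4.32% and 5.99% in control libraries. Both were above all controls in the knockdown libraries of batches 2 and 3 and listed at 0 in that of batch 1, and their including RPKM was the same in every library, so they count as 1 observation.

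Atp2b1, a plasma membrane calcium pump, had a 154-nucleotide exon at chr7:41256606-41256759 on the plus strand at 24.0%, 33.9% and 35.5% in knockdown and 20.9%, 25.7% and 24.4% in control libraries. It was higher in the knockdown library of each batch, the groups overlapped, and both forms were in the reference. Atp2a2, the SERCA calcium pump of the endoplasmic reticulum, had an 83-nucleotide exon at 33.5%, 27.6% and 21.5% in knockdown and 14.7%, 31.5% and 22.9% in control libraries. Cacna1d, a pore subunit of L-type calcium channels, had a 119-nucleotide exon at 48.5%, 69.1% and 76.1% in knockdown and 77.2%, 71.6% and 46.1% in control libraries, with opposite differences in batches 1 and 3. Scn3b (164 nucleotides) stood at 74.7%, 64.6% and 66.2% in knockdown and 66.3%, 59.4% and 70.6% in control libraries, and Trpc1 (155 nucleotides) at 100%, 85.3% and 83.1% and at 72.9%, 71.9% and 87.8%.

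**Figure D5:**
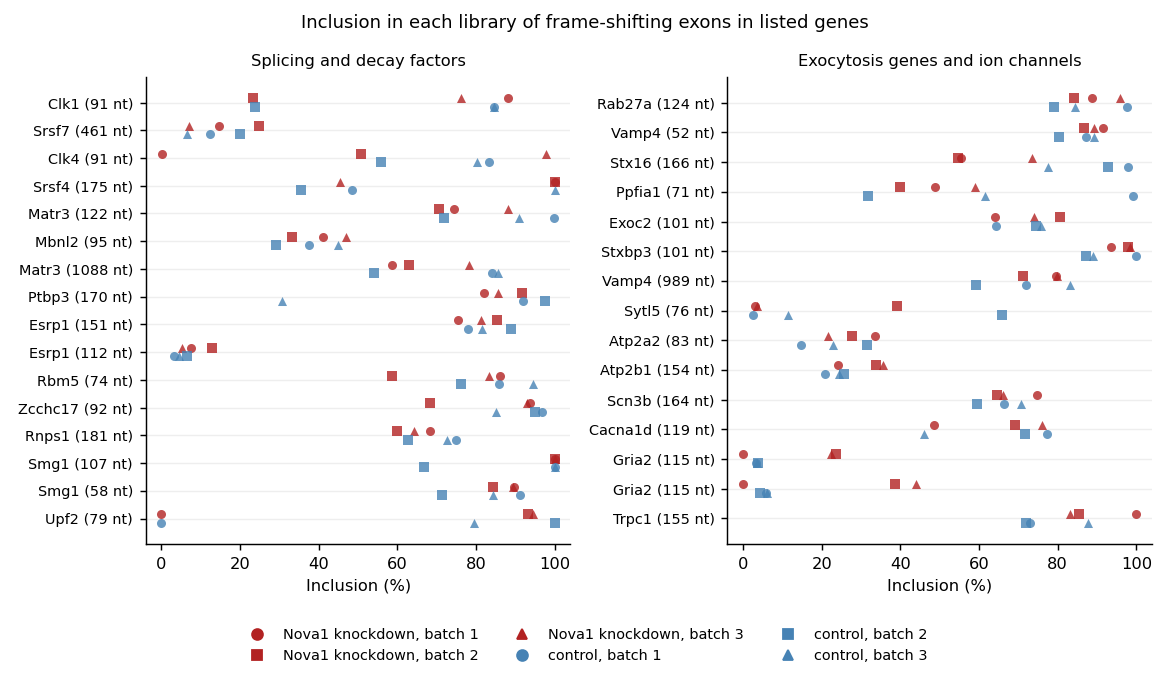
Inclusion (x axis, %) in each library of frame-shifting exons in genes for splicing and decay factors (left) and for exocytosis and ion channels (right), with Nova1 knockdown libraries in red above control libraries in blue and 1 marker shape per batch. Red and blue markers are intermixed in most rows, Stx16 being the row in which all red markers lie left of all blue ones.

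Genes of insulin signalling and beta cell survival held 9 exons in 8 of 77 genes, with 0 at an unadjusted limma p below 0.05 and a median difference of -2.08 points. Bad, a pro-apoptotic relative of Bcl2, had a 166-nucleotide exon at 12.5%, 15.3% and 5.34% in knockdown and 4.5%, 8.58% and 3.06% in control libraries. It was mostly skipped in every library and higher in the knockdown library of each batch, with overlap. Pik3r2, a regulatory subunit of phosphoinositide 3-kinase, had a 71-nucleotide second exon at 22.1%, 10.4% and 50.6% in knockdown and 16.8%, 8.6% and 8.89% in control libraries, and batch 3 carried the difference. Madd (70 nucleotides) stood at 13.7%, 17.0% and 5.49% in knockdown and 7.71%, 8.63% and 14.8% in control libraries. Nfkb1 (178 nucleotides) stood at 80.6%, 95.4% and 96.8% in knockdown and 98.4%, 94.6% and 91.5% in control libraries, and Casp6 (155 nucleotides) at 98.6%, 72.7% and 100% and at 99.8%, 96.0% and 100%.

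Genes described as Nova targets in brain held 10 exons in 8 of 60 genes, with 0 at an unadjusted limma p below 0.05 and a median difference of -0.331 points. Neo1, the receptor neogenin, had a 137-nucleotide exon at 99.3%, 83.1% and 98.6% in knockdown and 68.3%, 85.4% and 85.1% in control libraries, with overlap through batch 2. Plcb4, a phospholipase C, had a 76-nucleotide exon at 8.46%, 7.61% and 8.31% in knockdown and 10.6%, 16.0% and 9.44% in control libraries. Its groups did not overlap, at an unadjusted limma p of 0.315. Camk2g, a calcium-calmodulin kinase, had a 95-nucleotide exon at 86.0%, 91.6% and 32.0% in knockdown and 89.3%, 86.8% and 99.9% in control libraries, and only the knockdown library of batch 3 was low. Numb, a regulator of Notch signalling, had an 85-nucleotide exon at 15.1%, 35.3% and 53.5% in knockdown and 41.0%, 25.7% and 43.1% in control libraries. Its 128-nucleotide exon stood at 100%, 86.3% and 73.3% in knockdown and 82.3%, 100% and 90.7% in control libraries. The skipping forms of the former and the including forms of the latter had the same RPKM in every library, so the values are not independent.

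The exons at the highest level were also examined, chosen by RPKM after the values were seen. Their spread varied. The SD of inclusion was 2.91 points in knockdown and 0.532 in control cells for Nucb2, but 18.2 and 18.5 for Msln. Nucb2, the precursor of nesfatin, had a 161-nucleotide exon with a mean of 214.0 RPKM at 72.2%, 68.5% and 74.2% in knockdown and 70.4%, 69.3% and 69.9% in control libraries. Hspa9, the mitochondrial chaperone mortalin, had a 125-nucleotide exon at 71.0%, 62.2% and 67.4% in knockdown and 64.2%, 61.4% and 64.0% in control libraries. Tmem66, a regulator of store-operated calcium entry, had a 155-nucleotide exon at 69.0%, 73.5% and 71.0% in knockdown and 67.2%, 71.2% and 66.9% in control libraries. In Hspa9 and Tmem66 the knockdown library was the higher in each batch, the groups overlapped, and the differences in means were 3.64 and 2.69 points.

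Slc30a8, the transporter that loads zinc into insulin granules, had a 154-nucleotide exon at chr7:92500310-92500463 on the plus strand at 28.5%, 14.7% and 6.57% in knockdown and 23.4%, 16.6% and 4.17% in control libraries. Its batches were ordered alike in both groups. Aldoa, the glycolytic enzyme aldolase A, had a 53-nucleotide exon at 82.6%, 67.5% and 85.3% in knockdown and 79.4%, 63.9% and 83.3% in control libraries, with batch 2 the lowest in each. App, the amyloid precursor protein, had a 166-nucleotide exon at 69.9%, 69.5% and 66.5% in knockdown and 62.5%, 72.1% and 69.8% in control libraries. Msln, mesothelin, had the highest level among named exons between 5% and 95% inclusion, 1174 RPKM, and a 187-nucleotide exon at 44.4%, 45.9% and 76.6% in knockdown and 43.3%, 72.1% and 77.8% in control libraries.

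Host genes were tested for total level by limma on summed estimated reads. Of 1524 genes with a frame-shifting exon above 1 RPKM, 30 passed an adjusted p of 0.05 (1.97%, against 1.71% of 15983 genes). Of these 8 were higher (0.525%, against 0.513%) and 22 lower in knockdown cells (1.44%, against 1.2%). The median log2 fold change was 0.03 over hosts and 0.00 over all genes. Without the batch term 0 hosts passed and 0 of all genes tested. At an unadjusted limma p below 0.05 there were then 48 hosts, against 464 of 1524 in the reported test. Without batch 1 there were 0 hosts among 4 genes called, without batch 2 there were 0 among 0, and without batch 3 there were 3 among 89.

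Hosts named from the 30 were chosen after their values were seen. Reps2, an endocytosis adaptor, averaged 49.4 ± 7.02 CPM in knockdown and 81.9 ± 3.99 CPM in control cells (SD, n = 3 each), a log2 fold change of -0.74 ± 0.09 (SE) with a limma adjusted p of 0.0439. Its 106-nucleotide exon stood at 90.4%, 100% and 95.9% in knockdown and 84.1%, 78.3% and 70.6% in control libraries, without overlap. Slc8a3, a sodium-calcium exchanger, had the largest increase among the 30, with 7.53 ± 1.10 CPM in knockdown and 4.61 ± 1.02 CPM in control cells and a log2 fold change of 0.73 ± 0.09 (SE, limma adjusted p = 0.042). Aldoa fell by 0.49 ± 0.05 on the log2 scale (SE, limma adjusted p = 0.0378), to 600.4 ± 165.7 CPM in knockdown against 834.5 ± 202.0 CPM in control cells.

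Fam126a averaged 11.8 ± 1.05 CPM in knockdown and 17.1 ± 0.332 CPM in control cells (limma adjusted p = 0.0463), and its 298-nucleotide exon stood at 6.95%, 8.86% and 8.07% in knockdown and 52.0%, 49.9% and 10.8% in control libraries, without overlap. Rnf34, a ubiquitin ligase, was the only host of the 55 exons meeting the 10-point rule that passed, at a log2 fold change of -0.44 (limma adjusted p = 0.0462). Its 166-nucleotide second exon stood at 49.3%, 38.0% and 19.7% in knockdown and 18.8%, 23.2% and 9.34% in control libraries, with overlap through batch 3. Across 1964 exons, the difference in inclusion and the log2 fold change of the host had a Spearman correlation of 0.0075, a description over exons that share libraries and hosts.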

How the data were processed

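Reads of 6 poly(A) libraries were, per the submitters' processing notes, aligned to Rnor_5.0 by TopHat. The deposited transcript lists hold RPKM values that the authors computed per transcript, and an estimated read number per transcript as attribute text. The estimating program is not given in the sources used here. The members and gene lists were chosen with earlier results of these data known.

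From exon coordinates, cassette events were found and inclusion computed per library. The main test was limma 3.58.1 (R 4.3.3) on log2((including + 0.1)/(skipping + 0.1)) RPKM with batch as a block, over 5388 events with at least 1 RPKM, with Benjamini-Hochberg adjustment. Ratios understate differences of low forms. Gene levels were estimated reads summed per gene model and tested with limma voom after TMM scaling (10 reads in 3 libraries), over 15983 genes. Both steps were run on simulated data with planted changes, and the share of changes they recovered is not reported here. Groups, and batch numbers that pair the libraries, come from the titles. Deviations of same-batch libraries correlated at 0.03, 0.132 and 0.087 for event ratios and 0.582, 0.867 and 0.78 for genes. Nothing in the labels ties batches to particular rats, and p-values cover only the spread seen here, which may be technical.

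Named exons were the 12 largest differences each way that agreed in direction in all batches, up to 8 per list by level with inclusion of 5% to 95%, and others said to be chosen after their values were seen. Alternatives changed the block, batches, pseudocount, filter, scale, unit and gene normalization. A few exons that these rules select are not reported here. Exon sequences were not used here.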

Additional observations from a re-analysis of the deposited data

How the results depend on the processing

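No frame-shifting exon passed the limma test under any alternative, which changed the pseudocount, the filter, the scale, the unit, the block or the batches. At an unadjusted p below 0.05 the count ran from 56 of 989 with a filter of 5 RPKM to 142 of 2722 with no filter. As shares these counts ran from 3.74% to 5.66% over the settings, against 3.51% to 5.2% over all cassette events. Without the replicate block the count of calls was also 0, with 77 unadjusted, while 1 cassette event outside the frame-shifting exons passed (limma adjusted p = 0.0068). The 55 exons that met the 10-point rule became 95 with no filter, 19 with a filter of 5 RPKM, 16 at 20 points and 198 to 224 with a batch left out, where only the other batches have to meet the rule. Median inclusion of 69.8% over the 6 libraries was 74.0% with a filter of 5 RPKM, 63.8% for exons between 5% and 95%, and 67.6% for exons with an including and a skipping transcript that differ in nothing else, an alternative chosen after seeing the data. Calls among host genes were 17 of 171 genes called with no filter, 0 of 0 by limma on log2 RPKM (367 hosts unadjusted), 0 of 0 without the replicate block (48 hosts unadjusted), and 0 of 4, 0 of 0 and 3 of 89 without batch 1, 2 and 3, against 30 of 274 in the reported test. The Nova1 log2 fold change was -0.73 on log2 RPKM (limma adjusted p = 0.33), -1.12 without the replicate block (limma adjusted p = 1), and -1.25 to -0.98 with a batch left out (limma adjusted p = 0.035 to 0.15). The cause was not tested. The direction of 28 of 857 values of the 75 named exons reversed, in 20 exons, none among the 23 with the largest differences. Those 23 were chosen for the same direction in every batch, so leaving a batch out could hardly reverse them. Their lack of reversals is therefore no sign of stability.

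Reversals of the log2 ratio by setting were as follows. With inclusion in percent points, Upf2 was 2.72 and Actr2 0.17. Stxbp3 was -0.98 with estimated reads and -0.08 with a pseudocount of 0.01 RPKM. With a batch left out, log2 ratios ranged from -0.38 to 0.19 in Clk1, -4.56 to 1.25 in Clk4, -1.54 to 1.21 in Ptbp3, -2.0 to 0.10 in Zcchc17, -0.89 to 1.24 in Rab27a, -3.05 to 0.18 in Ppfia1, -0.07 to 0.25 in Exoc2, -0.22 to 2.4 in Stxbp3 and -0.19 to 0.71 in Atp2a2. They ranged from -0.98 to 0.83 in Cacna1d, -0.31 to 0.98 in Madd, -1.59 to 0.74 in Nfkb1, -4.03 to 0.15 in Camk2g, -0.64 to 0.60 and -2.16 to 0.99 in Numb, -0.20 to 0.15 in App, -0.10 to 1.16 in Slc7a2, -0.17 to 0.05 in Actr2 and -0.00 to 0.89 in Peg3. The SD of inclusion at 1 to 3 RPKM was 12.1 points in knockdown and 10.9 in control cells.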
